A study of Mus musculus with 4 samples.

Results

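The genes described here encode the enzymes and regulators of cholesterol and fatty acid synthesis. They are a set of 33 genes named by symbol, with 18 of sterol synthesis, 9 of fatty acid synthesis, 5 that control the SREBP transcription factors and 1 sterol carrier, out of 18193 genes that the array annotation names singly. The rule names them by symbol and uses no measured value, although earlier results of these data were known when the set was drawn up. Of the 33, Acat2 had no probe set with a single symbol and was not analysed here, 32 were measured, and 28 reached the floor of 3.29 on at least 1 array. The floor is the median of all deposited values and separates readable signal from values near background. All but 1 of the 28 were above it on all 4 arrays, the exception being Mvd, whose value in knockout GMP was 3.13. Me1, Lss, Nsdhl and Tm7sf2 stayed below the floor on every array, with highest values of 3.24, 2.99, 2.54 and 2.37.

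RNA came from unstimulated progenitors sorted from wild-type and Trib1-/- mice, all of a mixed C57BL6J/129SV background. Both genotypes were represented by 2 sorted populations, granulocyte monocyte progenitors (GMP) and MDP, a label whose stated cell type is macrophage dendritic cell, so that 4 groups had 1 Affymetrix array each. The sources used here do not state the age of the animals, how many were behind each array, the sort gates or the way Trib1 was disrupted. With 1 array per group no difference below has a replicate check, no test was made and no p-value is given. All values are log2 values and all differences are log2 differences. A gene is counted where a difference is at least 1 in size, which is 2-fold.

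Only the spread among a gene's own probe sets could be measured. For the 3549 genes with more than 1 probe set readable on all arrays its SD was 0.32 for the genotypes in GMP, 0.33 for those in MDP, 0.49 for MDP against GMP in wild type and 0.37 for the same contrast in the knockout. Variation among animals, sorts or arrays is not part of it. Markers set the cells apart, though not in every respect as their labels would have it. Primary granule genes (Mpo, Elane, Prtn3, Ctsg and Ms4a3) averaged 9.94 and 9.52 in wild-type and knockout GMP against 5.99 and 5.90 in MDP, and 5 monocyte and macrophage genes averaged 6.63 and 6.37 in MDP against 5.35 and 5.10 in GMP. The 4 dendritic cell genes above the floor averaged 3.44 and 3.25 in wild-type and knockout GMP against 4.88 and 5.13 in MDP. In wild type all 4 were higher in MDP, and in the knockout 3 of 4, against 5498 and 5643 of all 11653 genes above the floor. Flt3 reached the floor only in MDP, and Itgax only in knockout MDP (3.57, against 3.26 in wild-type MDP). The progenitor markers Kit and Cd34 were lower in MDP. Kit read 6.01 and 5.39 in GMP but 2.43 and 2.69 in MDP, below the floor, while Cd34 read 7.52 and 7.19 in GMP and 6.16 and 6.50 in MDP. Cx3cr1 was only 0.34 and 0.30 higher in MDP. The name MDP is kept here as the label, and the word progenitors below includes it in that sense only. The 2 probe sets of Trib1 read 0.34 and 0.15 higher in GMP labelled Trib1-/- and 0.41 and 0.43 lower in MDP so labelled. Since the deleted part is unknown here, they check nothing about the labels. The wild-type GMP array had lower correlations with the MDP arrays (0.948 and 0.950) than the knockout GMP array had (0.964 and 0.967).

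Cholesterol is built from acetyl-CoA through mevalonate and squalene, and fatty acids are built from the same acetyl-CoA through malonyl-CoA. Both branches are switched on by the SREBP transcription factors, which SCAP carries from the endoplasmic reticulum to the Golgi for cleavage, and which INSIG proteins hold back when sterols are plentiful. Dividing blood progenitors need both products for new membranes. Trib1, a pseudokinase that brings C/EBP proteins to an ubiquitin ligase, is also known for an effect on lipid synthesis in the liver.

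SREBPs bind the sterol regulatory element and act beside NF-Y, which binds CCAAT. The promoters of 3 members are shown: Hmgcs1, the only member with the classical element in the window, Elovl5, lower in MDP than in GMP, and Insig1, higher in MDP. Each runs from 250 bases before to 50 after the start site in RefSeq (GRCm38.p6), 5′ to 3′ on the plus strand, which is the strand of all 3 genes. They lie at chr13:119690101-119690400, chr9:77917115-77917414 and chr5:28071162-28071461. Capitals mark matches to TCACNCCAC and to CCAAT on either strand.
Hmgcs1: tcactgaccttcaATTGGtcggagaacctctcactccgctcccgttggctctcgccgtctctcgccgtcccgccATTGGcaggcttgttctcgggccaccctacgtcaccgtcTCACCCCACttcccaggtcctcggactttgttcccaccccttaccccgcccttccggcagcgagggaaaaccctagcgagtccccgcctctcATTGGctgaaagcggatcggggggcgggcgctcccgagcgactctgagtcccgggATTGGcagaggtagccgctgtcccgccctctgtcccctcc
Elovl5: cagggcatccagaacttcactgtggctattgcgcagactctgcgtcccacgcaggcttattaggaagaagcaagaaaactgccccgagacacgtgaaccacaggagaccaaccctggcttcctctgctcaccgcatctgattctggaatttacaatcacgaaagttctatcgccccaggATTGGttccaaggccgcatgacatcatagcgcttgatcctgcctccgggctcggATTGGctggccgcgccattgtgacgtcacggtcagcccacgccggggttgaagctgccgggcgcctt
Insig1: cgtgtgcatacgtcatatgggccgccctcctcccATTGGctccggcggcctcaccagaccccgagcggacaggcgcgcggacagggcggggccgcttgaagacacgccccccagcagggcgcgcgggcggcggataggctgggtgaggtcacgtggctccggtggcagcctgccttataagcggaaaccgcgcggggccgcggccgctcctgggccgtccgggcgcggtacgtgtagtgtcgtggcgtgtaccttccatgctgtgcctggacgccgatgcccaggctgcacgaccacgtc
The element TCACNCCAC was in 1 of the 27 members with an entry in the promoter table, as TCACCCCAC 137 bases before the start site of Hmgcs1, and in 1.44% of all 27025 genes of that table. CCAAT was in 23 of 27 members (85.2%), among them 14 of 15 of the sterol arm and 5 of 7 of the fatty acid arm, and in 41.1% of all genes. The Sp1 box GGGCGG was in 22 of 27 members (81.5%) and in 38.2% of all genes, and the E-box CACGTG in 6 members (22.2%) and in 8.09% of all genes. All 4 motifs were searched on both strands, a gene with several start sites counted where any window matched, and overlapping matches were all kept. Thus most of these genes share the CCAAT and GGGCGG letters, which are matches and not measured binding, and no account was taken of the base composition of the windows.

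The first comparison asks how the loss of Trib1 bears on lipid synthesis genes in GMP. Each gene is read by its chosen probe set, the one with the highest mean. By these no member differed by 2-fold between the genotypes in GMP, although another readable probe set of Scd2 did (-1.04). Of all 11653 genes above the floor, the knockout was at least 2-fold higher for 0.481% and at least 2-fold lower for 3.16%, against 0 of 28 members in each direction. Of the 28, 24 (85.7%) differed by less than 0.5, compared with 74.9% of all genes. Above the floor, the median difference was -0.042 over 14 genes of the sterol arm, -0.0071 over 8 of the fatty acid arm and -0.057 over all genes. With no floor it was -0.025 over 17 sterol genes, -0.11 over 9 fatty acid genes and -0.0096 over all genes. The arms therefore lay near the middle of all genes and near each other.

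Within the sterol arm, the steps from acetyl-CoA to squalene came first in order. Hmgcs1, which makes HMG-CoA, read 7.82 in wild-type GMP, 7.72 in knockout GMP, 7.69 in wild-type MDP and 7.97 in knockout MDP. The 4 arrays lay within 0.28 of each other. Mvk, the mevalonate kinase gene, read 4.24, 4.24, 4.32 and 4.24 in the same order of arrays, and Idi1, which isomerises isopentenyl diphosphate, 5.13, 5.24, 5.20 and 5.16. These probe sets ranged over 0.078 and 0.10, but the second probe sets of both genes did not. That of Mvk, above the floor on all arrays, read 4.04, 4.22, 4.60 and 3.93, with a genotype difference of -0.68 in MDP, and that of Idi1 differed by 0.29 in GMP and 0.62 in MDP. Fdps, the farnesyl diphosphate synthase gene, read 4.31 in wild-type and 3.82 in knockout GMP, and Mvd, the decarboxylase gene, 3.48 and 3.13. Fdft1, which encodes squalene synthase, went the other way, with a GMP difference of 0.56, and its second probe set also read higher in knockout GMP, by 0.33. In this segment 4 of 7 differences were above 0 in GMP, from -0.49 to 0.56, against 5199 of all 11653 genes above the floor.

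The later segment, from squalene to cholesterol, held the largest genotype difference of any member above the floor by the chosen probe sets. Ebp, which encodes the sterol isomerase that moves the ring double bond, read 5.22 in wild-type GMP, 4.24 in knockout GMP, 4.43 in wild-type MDP and 4.58 in knockout MDP. Wild-type GMP stood above the other 3 arrays, and the GMP difference was -0.97, just under 2-fold. Nsdhl, the gene of a sterol dehydrogenase in the same stretch of the pathway, read 2.54, 1.65, 1.81 and 1.75, also highest in wild-type GMP, but wholly below the floor. Of the other genes of the segment, Hsd17b7, a ketosteroid reductase gene, differed by 0.37 and the methylsterol oxidase gene Msmo1 by 0.33, whereas Sqle, Cyp51, Sc5d and Dhcr7 were between -0.25 and -0.025. The second probe set of Msmo1, below the floor, differed by -0.49.

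Among fatty acid arm genes above the floor, the desaturase gene Scd1 had the largest genotype difference in GMP by the chosen probe sets. It read 4.44 in wild-type GMP, 5.06 in knockout GMP, 5.13 in wild-type MDP and 4.87 in knockout MDP, a GMP difference of 0.62. Its second probe set, below the floor on every array, differed by -0.31. Fasn, the fatty acid synthase gene, read 4.52 and 4.93 in the GMP arrays, and Elovl6, an elongase gene for saturated chains, 4.18 and 3.70. The other probe sets of Elovl6 read -0.16 and 0.45. Acly, which makes cytosolic acetyl-CoA, Acaca, the acetyl-CoA carboxylase gene, Elovl5 and Acsl3, which activates fatty acids, differed by between -0.12 and 0.16. The related desaturase gene Scd2 had 3 probe sets, all lower in knockout GMP, but by unequal amounts of -0.13, -0.72 and -1.04.

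Among the regulators Insig2 had the largest GMP difference. Its values were 4.70 (wild-type GMP), 3.86 (knockout GMP), 4.35 (wild-type MDP) and 4.31 (knockout MDP), a GMP difference of -0.84. Its other probe sets differed by -0.45 and -0.70. The former reached the floor only in wild-type GMP, and the latter on no array. Scap differed by -0.46, but its second probe set by 0.24. Srebf1 and Srebf2, the genes of the transcription factors themselves, differed by -0.050 and 0.050, and Insig1 by 0.20. Stard4, which encodes a carrier that moves sterols between membranes, differed by 0.37, and its second probe set by -0.19. Markers of other cells moved with genotype in GMP: all 5 basophil and mast cell genes were lower in the knockout (average 5.35 in wild type and 3.53 in knockout, the latter mean near the floor). Of the 5, Gzmb reached the floor only in wild-type GMP. Of 7 dividing cell genes 6 were lower, from -0.10 (Mcm2) to -1.11 (Cdk1), and Mki67 was 0.066 higher. Over all genes above the floor 6432 of 11653 were lower in knockout GMP. Their part in the values of the members was not tested. Such arrays also cannot tell fewer cells of a type from less RNA per cell.

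**Figure D1:**
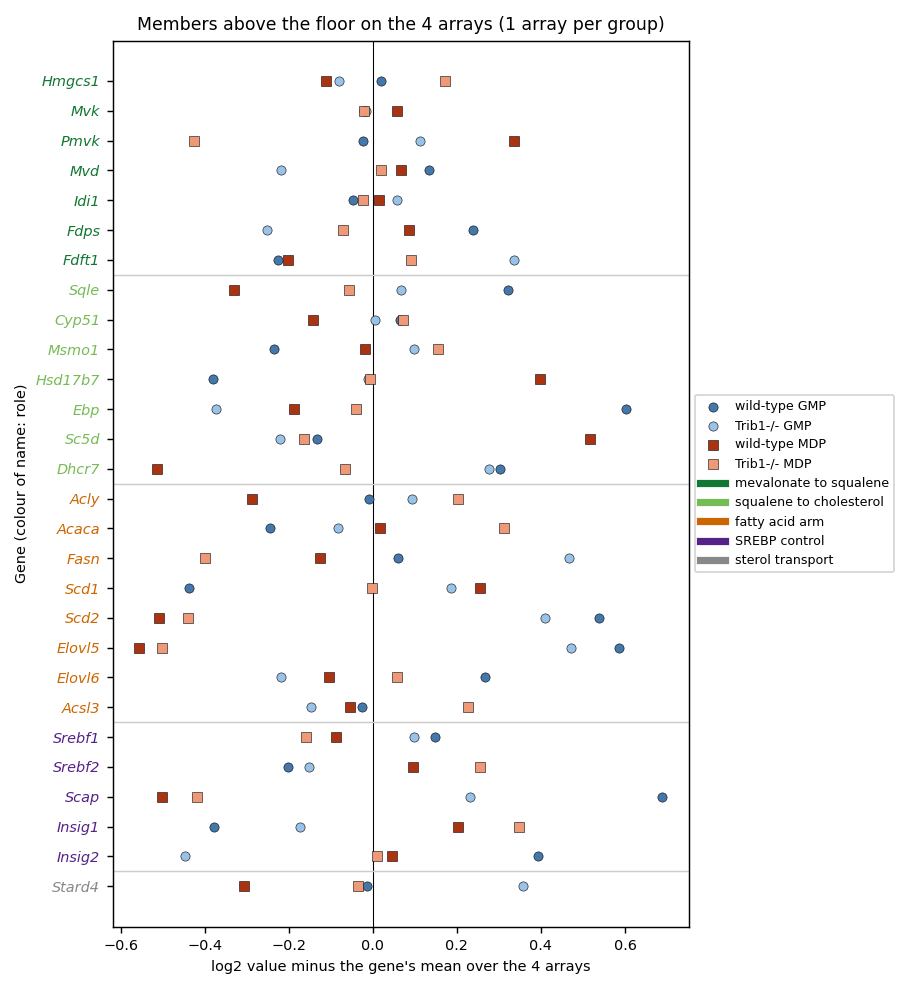
Deposited log2 value of each of the 28 members above the floor, minus the mean of the gene over the 4 arrays (x axis, log2), with genes on the y axis grouped and coloured by role; circles are GMP and squares MDP, dark is wild type and light Trib1-/-, 1 array each. Elovl5, Scd2, Scap and Insig1 separate circles from squares, and Ebp shows wild-type GMP apart from the other arrays; each gene is drawn by 1 probe set.

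The same question in MDP gave a like result. No member differed by 2-fold between the genotypes, against 1.10% of all genes at least 2-fold higher in the knockout and 1.53% at least 2-fold lower. Differences under 0.5 in size were found for 26 of 28 members (92.9%) and for 79.2% of all genes. The medians were 0.055 for the sterol arm, 0.12 for the fatty acid arm and 0.012 for all genes. These medians held no firm direction: that of the sterol arm was -0.040 with no floor, and that of the fatty acid arm -0.014 with cyclic loess.

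Among members above the floor, the largest MDP differences by the chosen probe sets were in the sterol arm and were lower in the knockout. Pmvk, the phosphomevalonate kinase gene, read 4.71 in wild-type GMP, 4.85 in knockout GMP, 5.07 in wild-type MDP and 4.31 in knockout MDP, so the MDP difference was -0.76. Sc5d, the sterol desaturase gene of a late step, read 4.12, 4.03, 4.77 and 4.09, a difference of -0.68 in which wild-type MDP stood above the other 3 arrays. Its other probe sets lay below the floor and read 0.07 and 0.98. Hsd17b7 had its highest value, 4.16, in wild-type MDP and 3.75 in knockout MDP. On the higher side Dhcr7, which encodes the last reductase on the way to cholesterol, read 5.42 in wild-type and 5.86 in knockout MDP. Acly read 8.92 and 9.40, and its second probe set went the same way, by 0.25, while another above the floor read -0.22. Hmgcs1 was 0.28 higher in knockout MDP, and 4 of its 5 probe sets were higher, by 0.28 to 0.50, and the remaining one read -0.31. In the fatty acid arm 6 of 8 differences were above 0, all under 0.5 by the chosen probe sets. Over all genes above the floor 5974 of 11653 were above 0. Other readable probe sets differed more, by 0.95 for Elovl6 (3.45 in wild-type and 4.40 in knockout MDP) and by -0.72 for Scd2.

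The regulators were flat between the MDP genotypes, from -0.07 (Srebf1) to 0.16 (Srebf2). Insig1, a strong target of the SREBPs, read 8.40 and 8.54 in wild-type and knockout MDP. Me1, the malic enzyme gene that supplies NADPH for fatty acid synthesis, read 3.24, 2.37, 3.02 and 2.06 across the arrays. Its knockout minus wild-type differences were -0.87 in GMP and -0.96 in MDP, but it was below the floor throughout and so not counted. Resident macrophage markers also moved in MDP: all 5 above the floor were at least 2-fold lower in the knockout, against 1.53% of all genes. Their average was 5.98 in wild-type and 3.45 in knockout MDP. Of the 5, C1qb reached the floor only in wild-type MDP and Cd163 only in MDP. Lpl, the lipoprotein lipase gene, which is no member, read 4.95 in wild-type MDP and was below the floor in knockout MDP. The part of these cells in the differences of the members was not tested.

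The genotype differences of the members in GMP and in MDP, which share no array, were unrelated. Over 28 genes Pearson's r was -0.090 and Spearman's rho -0.020, as a description across genes that are not independent replicates, and over all genes r was -0.0065. The sign was the same in both progenitors for 12 of 28 members (42.9%) and for 47.2% of all genes. By the chosen probe sets Acly, Acaca, Fdft1, Msmo1, Stard4, Insig1 and Srebf2 were above 0 in both. Other readable probe sets went below 0: in MDP for Fdft1 (-0.31) and Acaca (-0.21), in GMP for Stard4 (-0.19), and in both for Acly (-0.17 and -0.22). Fdps, Mvd, Sc5d, Insig2 and Srebf1 were below 0 in both. Of 10 members with several probe sets readable on all arrays, 5 had them all in 1 direction in GMP and 3 in MDP. Among members with opposite signs, Ebp differed by 1.12 between the progenitors, Pmvk by -0.90, Scd1 by -0.88 and Hsd17b7 by -0.78, counted as the MDP difference minus the GMP difference. None of these could be tested with single arrays.

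**Figure D2:**
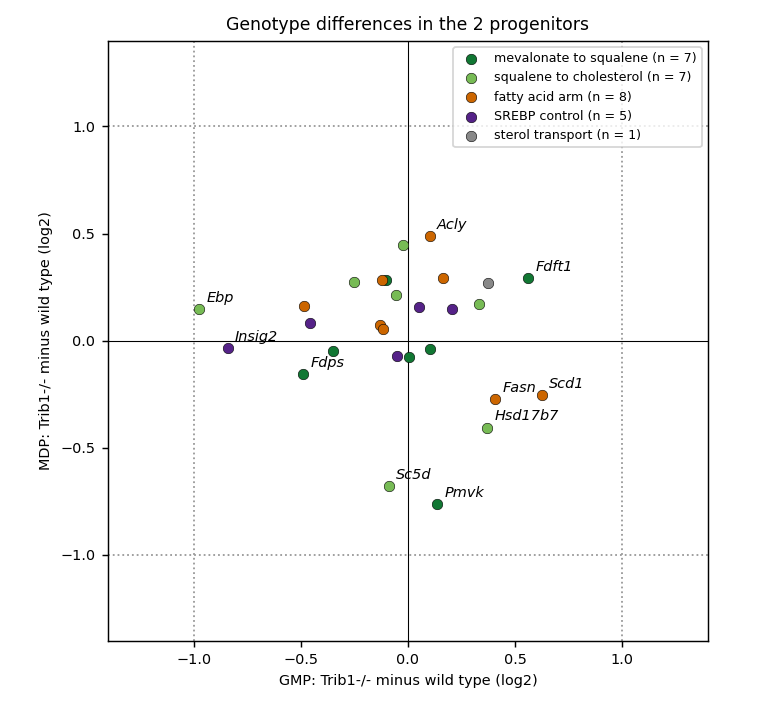
Log2 difference Trib1-/- minus wild type in GMP (x axis) and in MDP (y axis) for the 28 members above the floor, coloured by role, 1 array per group; dotted lines mark a 2-fold difference. Every point lies inside the dotted square, with Ebp nearest its edge at -0.97 in GMP and Pmvk at -0.76 in MDP.

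The comparison of MDP with GMP was larger. In wild type 3 of 28 members (10.7%) were at least 2-fold lower in MDP, Scap, Elovl5 and Scd2, against 12.4% of all genes, and 0 members were at least 2-fold higher, against 4.16% of all genes. In the knockout 0 members passed in either direction by the chosen probe sets, against 4.08% of all genes lower and 2.75% higher. The share of lower members was near that of all genes and is therefore no feature of the set. The sterol arm had medians of -0.021 in wild type and 0.029 in the knockout, and the fatty acid arm -0.23 and -0.039. Over all genes the medians were -0.043 and -0.014, and the fatty acid arm lay 0.21 below the sterol arm in wild type and 0.068 below it in the knockout. That contrast between genotypes depends on the settings, since the knockout median of the fatty acid arm was between -0.19 and -0.52 under 5 of 8 alternatives.

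In the fatty acid arm Elovl5 and Scd2 had the largest differences in wild type. Elovl5, the elongase of polyunsaturated fatty acids, read 9.33 in wild-type GMP, 9.21 in knockout GMP, 8.18 in wild-type MDP and 8.24 in knockout MDP. Both MDP arrays lay below both GMP arrays, with fold differences of 2.21 in wild type and 1.96 in the knockout. Its second probe set read 9.09, 9.13, 8.08 and 8.13, differences of -1.01 and -1.003. Scd2, a stearoyl-CoA desaturase gene, read 7.82, 7.69, 6.77 and 6.84, again with no overlap, and differed by -1.05 and -0.85. Its second probe set differed by -1.25 in each genotype, and the remaining one by -1.12 in wild type and 0.32 in the knockout. Scd1, the other desaturase gene, did not share this pattern, with differences of 0.69 in wild type and -0.19 in the knockout. Fasn differed by -0.18 and -0.86, and Acaca was higher by 0.26 and 0.40, with its second probe set at 0.57 and 0.35. Acly differed by -0.28 and 0.11.

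The SREBP regulators went different ways between the progenitors. Scap, the escort of the SREBPs, read 5.46 in wild-type GMP, 5.003 in knockout GMP, 4.27 in wild-type MDP and 4.35 in knockout MDP. Both MDP arrays were lower, with differences of -1.19 in wild type and -0.65 in the knockout, and the second probe set differed by -0.42 and -0.31. Insig1, the sterol-dependent brake on that escort, read 7.82, 8.02, 8.40 and 8.54, so both MDP arrays were higher, by 0.58 and 0.52. Srebf2, the factor that mainly drives sterol genes, read 6.04, 6.09, 6.34 and 6.50, and its second probe set was also higher in MDP in each genotype, by 0.23 and 0.30. Srebf1, the factor tied more to fatty acid genes, differed by -0.24 and -0.26. Insig2 differed by -0.35 and 0.46. Its other probe sets differed by -0.49 and -0.92 in wild type and by -0.54 and -0.32 in the knockout. The former reached the floor only in wild-type GMP, and the latter on no array. By the chosen probe sets the differences of Scap were above the SD between probe sets in each genotype, as were those of Insig1. Those of Srebf2 and Insig2 were above it in the knockout only, and those of Srebf1 were below it. The second probe set of Scap was below it in both genotypes.

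**Figure D3:**
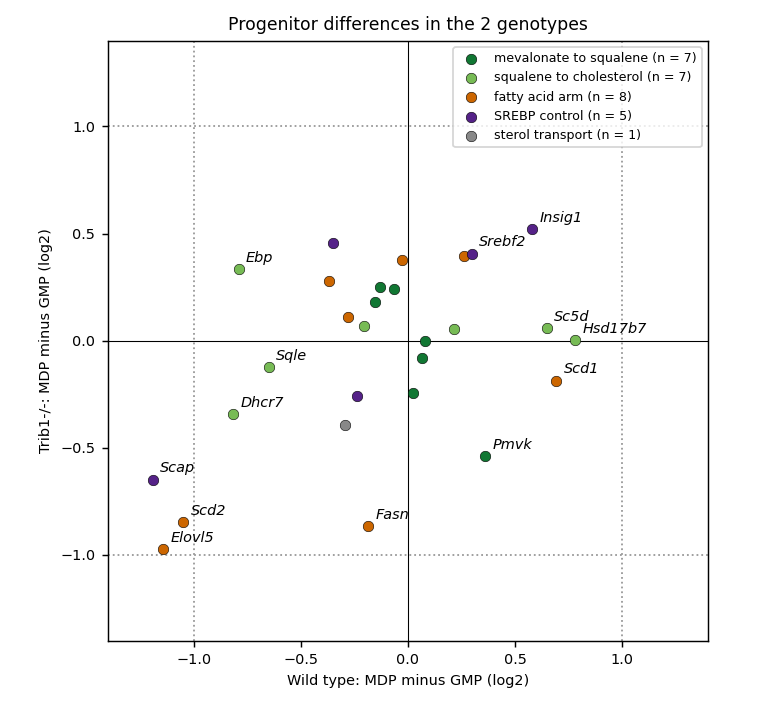
Log2 difference MDP minus GMP in wild type (x axis) and in Trib1-/- (y axis) for the 28 members above the floor, coloured by role, 1 array per group; dotted lines mark a 2-fold difference. Elovl5, Scd2 and Scap lie at the lower left and Insig1 at the upper right, whereas Ebp, Scd1 and Pmvk have opposite signs in the genotypes.

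Sterol synthesis genes had no common direction between the progenitors. Dhcr7 read 6.23, 6.21, 5.42 and 5.86 across wild-type GMP, knockout GMP, wild-type MDP and knockout MDP, and Sqle, the squalene epoxidase gene, 3.96, 3.70, 3.31 and 3.58. For both, the MDP arrays lay below the GMP arrays. Sqle was close to the floor in MDP. Hsd17b7 read 3.38, 3.75, 4.16 and 3.75 and was higher in wild-type MDP by 0.78, but by 0.0028 in the knockout, and its second probe set, above the floor only in GMP, read -1.71 and -0.70. Ebp (-0.79 and 0.33) and Pmvk (0.36 and -0.54) changed sign with genotype. In the segment from mevalonate to squalene 0 of 7 genes had the same sign in both genotypes. In the segment from squalene to cholesterol 5 of 7 did, against 67.0% of all genes. The count of 0 rests partly on values near 0, such as Mvk (0.078 and -0.0029) and Idi1 (0.064 and -0.081). The second readable probe set of Idi1 was higher in MDP in both genotypes, by 0.28 and 0.60.

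Counted by arrays, both MDP values were below both GMP values for 8 members (28.6%), against 29.8% of all genes, and above them for 4 (14.3%), against 25.6%. The 8 were Elovl5, Scd2, Scap, Fasn, Dhcr7, Sqle, Stard4 and Srebf1, and the 4 were Insig1, Srebf2, Acaca and Hsd17b7. Stard4 overlapped once each array was centred on its median. The sign of the difference was the same in both genotypes for 14 of 28 members (50%) and for 67.0% of all genes. Across these 28 genes the wild-type and knockout differences, which share no array, had r = 0.46 and rho = 0.32, and over all genes r = 0.60 and rho = 0.52, as descriptions.

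**Figure D4:**
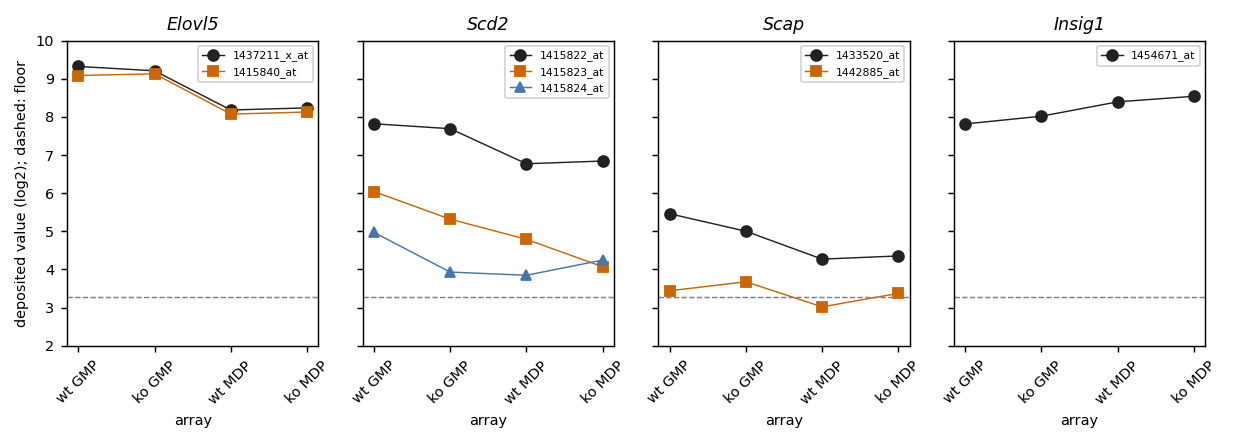
Deposited log2 value (y axis) of every probe set of Elovl5, Scd2, Scap and Insig1 on the 4 arrays (x axis; wt is wild type, ko is Trib1-/-), with the floor of 3.29 dashed; lines only join values of 1 probe set. Both probe sets of Elovl5 drop by about the same amount from GMP to MDP, whereas the lowest probe set of Scd2 in wild-type GMP is not lower in knockout MDP (4.25) than in knockout GMP (3.93).

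Among the chosen probe sets of members above the floor, that of Scap had the widest range (1.19). The 3 genes whose centred values lay nearest to those of Scap over the 4 arrays were Hhex (distance 0.053), Pigq (0.057) and Nxn (0.058). With 4 arrays such likeness is a description only. Cell markers differed between the progenitors as well. In wild type the dividing cell genes had a median difference of -0.70 with 5 of 7 lower in MDP, and in the knockout 0.30 with 5 of 7 higher. Over all 11653 genes above the floor, 6133 were lower in MDP in wild type and 5643 were higher in the knockout. Resident macrophage genes averaged 3.67 in wild-type GMP, where C1qb and Cd163 were below the floor, and 5.98 in wild-type MDP. Their part in the values of the members was not tested.

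Other genes of lipid metabolism gave a wider view of the pathway. Of 19 further synthesis and SREBP genes 13 were above the floor, and 0 were 2-fold apart between the GMP genotypes or between the progenitors. In MDP 1 was lower in the knockout, Acss2 (-1.05), an acetyl-CoA synthetase gene that reached the floor only in wild-type MDP. For MDP against GMP, the genes of both proteases that cleave SREBPs differed by -0.66 (Mbtps1) and -0.65 (Mbtps2) in wild type and by -0.24 and -0.15 in the knockout. Of 9 uptake genes 7 were measured, and 1 was at least 2-fold apart between the progenitors, Lpl, at 4.95 in wild-type MDP and below the floor on the other 3 arrays. Vldlr, a lipoprotein receptor gene, differed by 0.95 and 0.63 in MDP against GMP. Of 8 measured efflux and storage genes 0 were 2-fold apart in any comparison. Nr1h3, the gene of the sterol sensor LXR alpha, differed by 0.99 between the GMP genotypes, from a wild-type value below the floor. Abcg1, a sterol exporter gene, differed by -0.85 between the GMP genotypes and by 0.89 for MDP against GMP in the knockout, its value in knockout GMP being the lowest of the 4.

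Genes of fatty acid oxidation, the opposite process, were measured beside them. In wild type 4 of 11 above the floor were at least 2-fold lower in MDP, against 12.4% of all genes, and 0 higher: Acaa2 (-1.47), Acadm (-1.26), Acadvl (-1.17) and Cpt1a (-1.06). In the knockout 2 of 11 were, against 4.08% of all genes, Acaa2 (-1.39) and Acadm (-1.06). Such counts in a short list call nothing particular to it. Acaa2, the thiolase gene of the last step of the cycle, read 5.67 in wild-type GMP, 5.09 in knockout GMP, 4.20 in wild-type MDP and 3.70 in knockout MDP. Acadm, a dehydrogenase gene for medium chains, read 5.32, 4.81, 4.06 and 3.75. For both genes each MDP array lay below each GMP array. Acadvl, the dehydrogenase gene for very long chains, was the only gene of this list 2-fold apart between the GMP genotypes (-1.13).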

How the data were processed

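Total RNA of sorted cells was extracted with Trizol and biotinylated cRNA prepared with the NuGEN Ovation system, per the labels' protocols. RMA was the method of the authors per the submitters' processing notes (version not stated there); it corrects background, equalises the arrays and summarises probes. The deposited values were taken as log2 values, a scale inferred from their range (0.14 to 14.5; array medians 3.27 to 3.31). They are not centred on 0 and each column is a single array, so no ratio direction is in question. Total RNA per cell cannot be seen after it. The number of arrays limits the precision.

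Of 45101 probe sets 64 are controls, 34945 have 1 symbol, 932 several and 9160 are unlisted. A gene was represented by its single-symbol probe set with the highest mean. Columns of other samples numbered 0. The members and lists were chosen with earlier results of these data known. All members are accounted for; values on every array are given for those with the largest levels or differences in each role. Genes were counted by size, and the counting was tested on simulated data. Alternatives were other floors, probe set rules, scalings (cyclic loess in limma 3.58.1 under R 4.3.3, 3 iterations), an offset of 32 and other size rules. Python 3.11.15 and pandas 2.3.3 were used. Some genes of the pathway were not analysed here.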

Additional observations from a re-analysis of the deposited data

Results flagged for a closer look

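Among members above the floor on all arrays, only Ebp had opposite genotype differences at least 1 apart by the chosen probe sets. The gap was 1.12 on the log2 scale (MDP difference minus GMP difference), and the size of 1 was set after the values were seen. With 32 added to the linear values the differences of Ebp were -0.44 and 0.062. Other readable probe sets of Scd2 (-1.04 in GMP and 0.40 in MDP) and Elovl6 (-0.16 and 0.95) also had opposite differences. The median of the sterol arm was also of opposite sign in GMP and MDP, 0.096 apart, and so was that of the fatty acid arm, 0.12 apart. Neither opposite sign was kept under every setting: with each array centred the sterol medians were 0.060 and 0.067 and the fatty acid medians 0.095 and 0.13, with the stricter floor 0.040 and 0.16, and 0.13 and 0.063. With single arrays none of these differences was tested.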

How the results depend on the processing

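No paired analysis was possible because each group has 1 array. Of 104 recomputed counts and arm medians, 83 stayed within their tolerance (1.5 times for a count; for a median the SD between probe sets divided by the root of the number of genes) and 21 did not. At 1.5-fold the members apart numbered 3 and 2 for the genotypes in GMP and MDP (18.5% and 14.8% of all genes), and 9 and 4 for MDP against GMP in wild type and knockout (40.7% and 22.9%); at 4-fold the 3 in wild type became 0. With cyclic loess 1 member, Ebp (-1.005), was 2-fold apart between the GMP genotypes and 1, Scap (-1.22), between the progenitors in wild type, where Elovl5 was at -0.95 and Scd2 at -0.93. With 32 added the wild-type count was also 1, Elovl5, and Ebp was at -0.44 in GMP. Without probe sets open to cross-hybridisation 1 was apart in the knockout, Elovl5 (-1.003).

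Centring each array moved the median of all genes from -0.057 to 0.045 in GMP and from -0.043 to 0.088 in wild type, and with it that of the sterol arm to 0.060 and 0.11. The sterol median in MDP was -0.040 with no floor, 0.16 with the floor at the 75th percentile and 0.18 with probe sets averaged. The fatty acid median was 0.13 in GMP with the stricter floor and -0.014 in MDP with cyclic loess. In knockout MDP against GMP it was -0.19 with no floor, -0.52 with the stricter floor, -0.31 with probe sets averaged, -0.19 without cross-hybridising probe sets and -0.21 with cyclic loess. Causes of these shifts were not tested. Of 800 values of single members, 782 stayed within the SD between probe sets. Many of these could not move. A different floor leaves a member's own difference as it was, for 112 values with no floor and 64 with the stricter one. Raising values to the floor altered only Mvd. Of the 2-fold differences, only 3 in number, 0 changed sign.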
